A study of Homo sapiens with 12 samples.

Results

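The comparison described here sets HCT116 cells expressing the CR3 peptide against HCT116 cells expressing the mCherry control, with 3 RNA sequencing libraries in each group. Genes were taken for description if they had at least 10 reads in at least 3 of these 6 libraries, which kept 15663 of the 29084 identifiers with any read in them and of the 63677 in the whole table. Of the 15663, 15159 could be tested. The other 504 held a value whose decimal place could not be settled, and were set aside. At the edge of the rule, 222 genes had a third-highest library of exactly 10 reads and 221 had one of 9.

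HCT116 cells are a widely used line from a human colorectal carcinoma. The series compared 4 genotypes in it, mCherry, CR3, scramble and reverse, each with 3 libraries, and its title describes CR3 as a peptide that perturbs condensates. Cells of all 4 genotypes, the controls included, received doxycycline to switch on their construct. The labels give its concentration as 1 ug/ul and its start as 48 before RNA extraction, a time without a unit. The cells are described as clones, so a difference between genotypes and a difference between clones cannot be told apart, and the sources used here do not say how many clones a genotype had. PolyA RNA was sequenced with a stranded kit. The constructs' own transcripts were not analysed here, so no induction level is given.

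Biomolecular condensates are assemblies of proteins and RNA held together by many weak contacts, often through disordered protein stretches, with no membrane around them. Transcription factors, the Mediator complex, other coactivators and RNA polymerase II can gather in such assemblies at strongly active genes. Colorectal cancer cells depend on transcription factors of the intestinal lineage such as SOX9, on signalling through WNT and receptor kinases, and on high rates of nucleotide and protein synthesis.

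The 6 libraries held 17431385 to 23566048 reads. Within a group the libraries were farther apart than read counting allows, with a chi-square per degree of freedom of 6.55 in mCherry and 5.63 in CR3. Between 21524 and 21926 genes had a read in the mCherry libraries, and between 22849 and 23667 in the CR3 libraries. The labelled line was checked against 20 intestinal epithelial markers. EPCAM, KRT8, KRT18, KRT19, CDX2 and HNF4A were present in every group, whereas TFF3 and FABP1 had no read in any group and CDX1, CDH17 and MUC2 averaged under 2 normalized reads. A second list, chosen like the first with earlier results of these data known, gave a different picture. The 20 markers of embryonic kidney lines summed to 2111 to 2330 normalized reads in the mCherry libraries, 2159 to 2229 in scramble and reverse, and 4486 to 4674 in the CR3 libraries. The part of any other cells in the results was not tested, and as these are bulk libraries, more cells of a type and more RNA per cell cannot be told apart.

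Of the tested genes 4426 differed between the groups, mostly by little. A total of 2181 genes were higher in CR3 (14.4% of those tested) and 2245 lower (14.8%), at an adjusted p under 0.05 with limma on log2(normalized reads + 1). A normalized read is a read divided by the library's size factor, and a log2 fold change on this scale understates the change of low genes. The direction was balanced only in number. At least 2-fold, 761 genes were higher (5.02%) and 70 lower (0.462%), and at least 4-fold 578 were higher and 29 lower. The median log2 fold change was 0.55 over the genes called higher and -0.29 over those called lower, and 88.2% of the lower genes but 52.0% of the higher genes changed by less than 1.5-fold. In 5759 genes the libraries of the groups did not overlap (38.0%), and 4144 of these were called. Genes called lower took up 38.8% to 39.2% of reads in the mCherry libraries and 33.6% to 34.0% in the CR3 libraries, and genes called higher went from 6.31% to 6.46% up to 8.46% to 8.64%. The split of calls rested on the scaling. With libraries scaled by their totals alone, 3576 genes were higher and 1258 lower, so that 74.0% of calls were higher in place of 49.3%, and the median of all tested genes stood at 0.09 in place of 0.00.

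**Figure D1:**
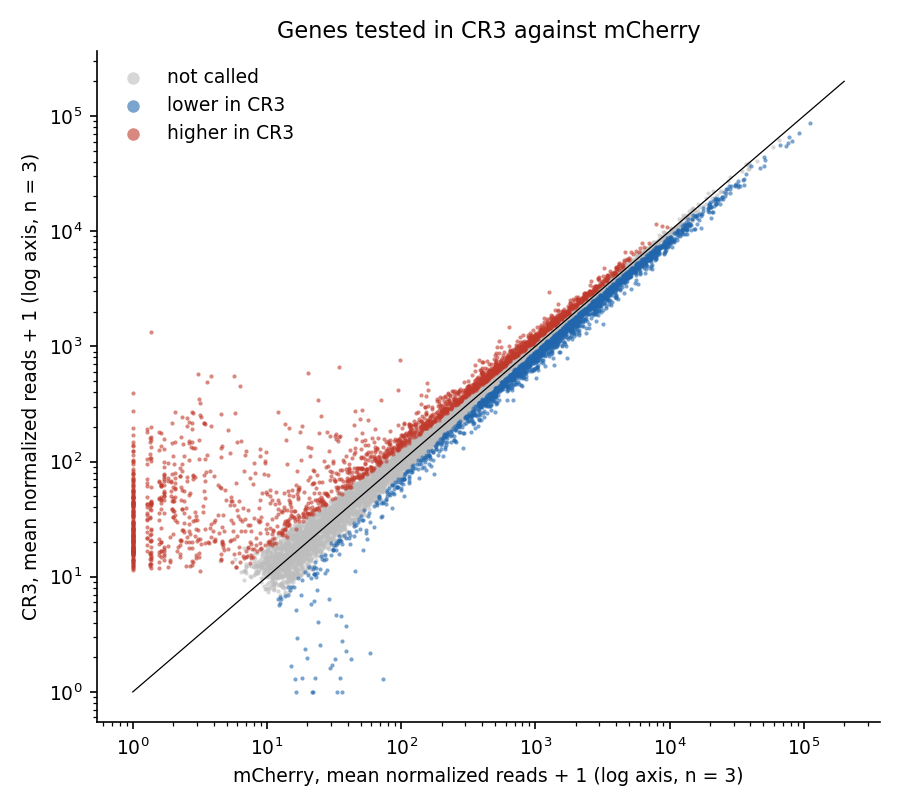
Mean normalized reads + 1 of each tested gene in CR3 (vertical axis) against mCherry (horizontal axis), both log axes, n = 3 libraries a group, coloured by call; the line marks equal values. Genes near 0 in mCherry but not in CR3 form the cloud at the left, and most points at the upper right end of the cloud lie below the line.

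The direction of change followed the expression level. Among the 1375 genes with a mean of up to 20 normalized reads over the 6 libraries, 26.3% were higher and 4.44% lower. Among the 2431 genes above 2000, 7.9% were higher and 35.2% lower. The share called higher fell at each step between these bins. These shares were counted after division by the size factors, and not with libraries scaled by their totals. Low genes enter the comparison through the group where they are high, so the lowest bin was bound to hold large differences. Restricted to the 12012 genes with at least 50 normalized reads in both groups, 1325 were higher and 2117 lower, and 31 and 5 of them by at least 2-fold.

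**Figure D2:**
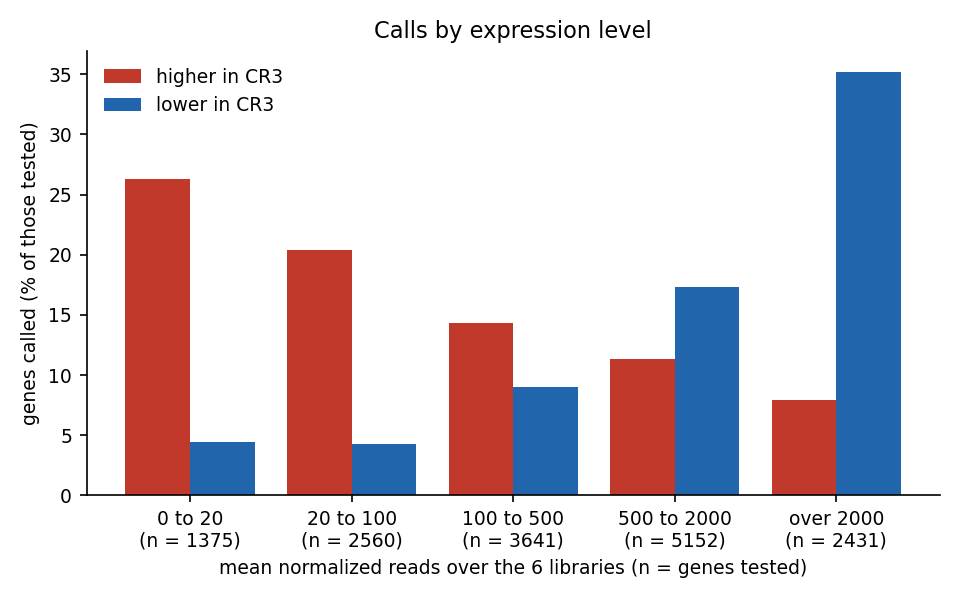
Share of tested genes called higher or lower in CR3 (vertical axis, percent) by mean normalized reads over the 6 libraries (horizontal axis, 5 bins with the number of genes in each). The share called lower reaches 35.2% above 2000 normalized reads, and the share called higher is largest, 26.3%, in the lowest bin.

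The largest differences were in genes close to silent in the control. Of the tested genes, 350 had at most 3 reads over the mCherry libraries together, 191 of them none, and 317 were protein-coding. Their median level in CR3 was 33.0 normalized reads, 99 of them exceeded 50, and together they made up 0.0897%, 0.0988% and 0.0968% of the reads of the 3 CR3 libraries. In 340 of the 350 the scramble and reverse means were both under 5. They had to be high in CR3 to be tested, so their number is a description. Among the 10 most abundant stand genes whose known sites of expression lie outside the intestine, and the 5 below were matched to a promoter with a single start in RefSeq (GRCh38.p14). The 150 bases before each start are printed because the genes differ in CG content, with each CG pair in capitals. RefSeq starts can differ from the GENCODE ones, and the GPX3 stretch lies after the GENCODE start of that gene. LAPTM5, at chr1:30757775-30757924 on the minus strand, has 2 such pairs, LUZP4, at chrX:115289565-115289714 on the plus strand, has 5, PNMA8A, at chr19:46471564-46471713 on the minus strand, has 16, GPX3, at chr5:151020441-151020590 on the plus strand, has 13, and DSG1, at chr18:31318010-31318159 on the plus strand, has 1.
LAPTM5: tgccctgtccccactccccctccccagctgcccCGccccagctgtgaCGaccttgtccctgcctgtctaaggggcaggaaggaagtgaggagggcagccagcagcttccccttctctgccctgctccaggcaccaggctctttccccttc
LUZP4: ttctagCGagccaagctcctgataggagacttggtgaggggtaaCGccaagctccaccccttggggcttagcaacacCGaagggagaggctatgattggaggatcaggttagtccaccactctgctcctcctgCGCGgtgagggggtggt
PNMA8A: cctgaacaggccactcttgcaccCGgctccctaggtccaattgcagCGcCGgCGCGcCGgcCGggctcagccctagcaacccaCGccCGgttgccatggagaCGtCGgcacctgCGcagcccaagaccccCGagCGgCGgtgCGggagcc
GPX3: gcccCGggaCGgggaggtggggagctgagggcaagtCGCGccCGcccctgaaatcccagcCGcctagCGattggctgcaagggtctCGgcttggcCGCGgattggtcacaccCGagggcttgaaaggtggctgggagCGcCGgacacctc
DSG1: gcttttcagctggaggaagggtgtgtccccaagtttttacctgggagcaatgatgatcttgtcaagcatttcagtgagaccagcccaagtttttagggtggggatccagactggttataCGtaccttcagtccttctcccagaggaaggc

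LAPTM5, a lysosomal membrane protein of blood cells, read 0, 0 and 1.07 normalized reads in the mCherry libraries and 1313, 1395 and 1271 in the CR3 libraries. A single mCherry read lies behind its ratio of 4100 (95% counting interval 736 to 162000), and its log2 fold change was 10.02 ± 0.35 (SE, adjusted p = 7.36e-12). No other gene of this set came near its level. LUZP4, an mRNA export factor of the testis and of some tumours, had no read in mCherry and 397, 406 and 376 normalized reads in CR3, at least 133-fold higher against a floor of 3 reads per library. TLE4, a Groucho-type co-repressor, went from no read to 263, 293 and 267, at least 92.8-fold. The X-linked gene BEX4 stood at 1.05, 0 and 2.13 in mCherry and at 243, 309 and 250 in CR3. RIMS4, of a family that acts at the synaptic active zone, stood at 2.09, 0.841 and 0 in mCherry and at 227, 204 and 216 in CR3. BCAT1, the cytosolic transaminase of branched-chain amino acids, stood at 0, 0 and 1.07 against 171, 203 and 222. PNMA8A had no read in mCherry and 173, 196 and 215 in CR3. The remaining 3 of the 10 were the secreted glutathione peroxidase GPX3, the secreted serpin SERPINF1 and the desmosomal cadherin DSG1, with CR3 means of 177 to 180 and ratios of 272 to 551. In each of the 10 every CR3 library lay above every mCherry, scramble and reverse library.

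Genes already expressed in the control rose less steeply. VIM, the intermediate filament of mesenchymal cells, read 88.8, 96.7 and 107 normalized reads in mCherry and 771, 731 and 792 in CR3, a 7.85-fold rise (log2 fold change 2.96 ± 0.14, adjusted p = 2.88e-10). Its scramble and reverse means were 77.8 and 64.8. KCTD12, an auxiliary subunit of GABA-B receptors, rose 4.90-fold from 65.8, 72.3 and 72.5 to 302, 379 and 351. It was not called when decimal places were restored without the group labels, with a log2 fold change of 1.18 in place of 2.27. The cytoskeletal adaptor OBSL1 rose 4.50-fold from 98.2, 94.2 and 87.5 to 405, 425 and 428. PARD3B, of the PAR polarity family, rose 4.04-fold from a mean of 56.0 ± 11.3 (SD, n = 3) to 226 ± 5.49. ACTA2, the smooth muscle actin, rose 3.06-fold from 163, 158 and 145 to 468, 465 and 493. The same fold was found for DCHS1, a giant protocadherin. ARV1, NCR3LG1 and LMBRD2 rose by 2.65- to 2.92-fold. NCR3LG1 is a ligand of the natural killer cell receptor NKp30. In each of these 9 genes the CR3 libraries lay above the 9 libraries of the other genotypes.

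Of the genes that fell, with at least 50 normalized reads in both groups, the steepest decrease was 0.434-fold. It belonged to LAMA2, a laminin chain of the basement membrane, with 143, 186 and 198 normalized reads in mCherry and 81.3, 76.3 and 71.2 in CR3 (log2 fold change -1.18 ± 0.14, adjusted p = 3.44e-06). PHLDB2, which anchors microtubules near the cell edge, read 2994, 3146 and 3370 in mCherry and 1513, 1601 and 1599 in CR3, 0.496-fold. ZBED2, a zinc finger gene on the same chromosome, fell to 0.525-fold. SOX9, the transcription factor of intestinal stem and Paneth cells, read 658, 724 and 667 in mCherry and 378, 289 and 353 in CR3 (log2 fold change -1.01 ± 0.10, adjusted p = 6.08e-07). The scramble and reverse means of SOX9 were 457 and 516, between both groups. SOX4, a second SOX factor, read 1036, 1034 and 964 against 592, 489 and 523, with scramble and reverse again between, at 725 and 806. SCNN1A, a subunit of the epithelial sodium channel, read 1438, 1497 and 1170 against 809, 552 and 710, while scramble and reverse, at 1194 and 1432, stood with mCherry.

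In INIP, a subunit of the sensor of single-stranded DNA complex, the controls did not go together. It read 1669, 1783 and 1699 in mCherry and 775, 822 and 767 in CR3, but 876 and 855 on average in scramble and reverse, so its high value belonged to the mCherry libraries. IGSF9 had means of 203 in mCherry, 110 in CR3, 123 in scramble and 155 in reverse, and its mCherry and reverse libraries overlapped. Of the 70 genes at least 2-fold lower in CR3, 43 had both the scramble and the reverse mean under the midpoint between mCherry and CR3, 18 had both above it and 9 had 1 under it. Of the 761 at least 2-fold higher, 741 had both means under the midpoint, on the side of mCherry.

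**Figure D3:**
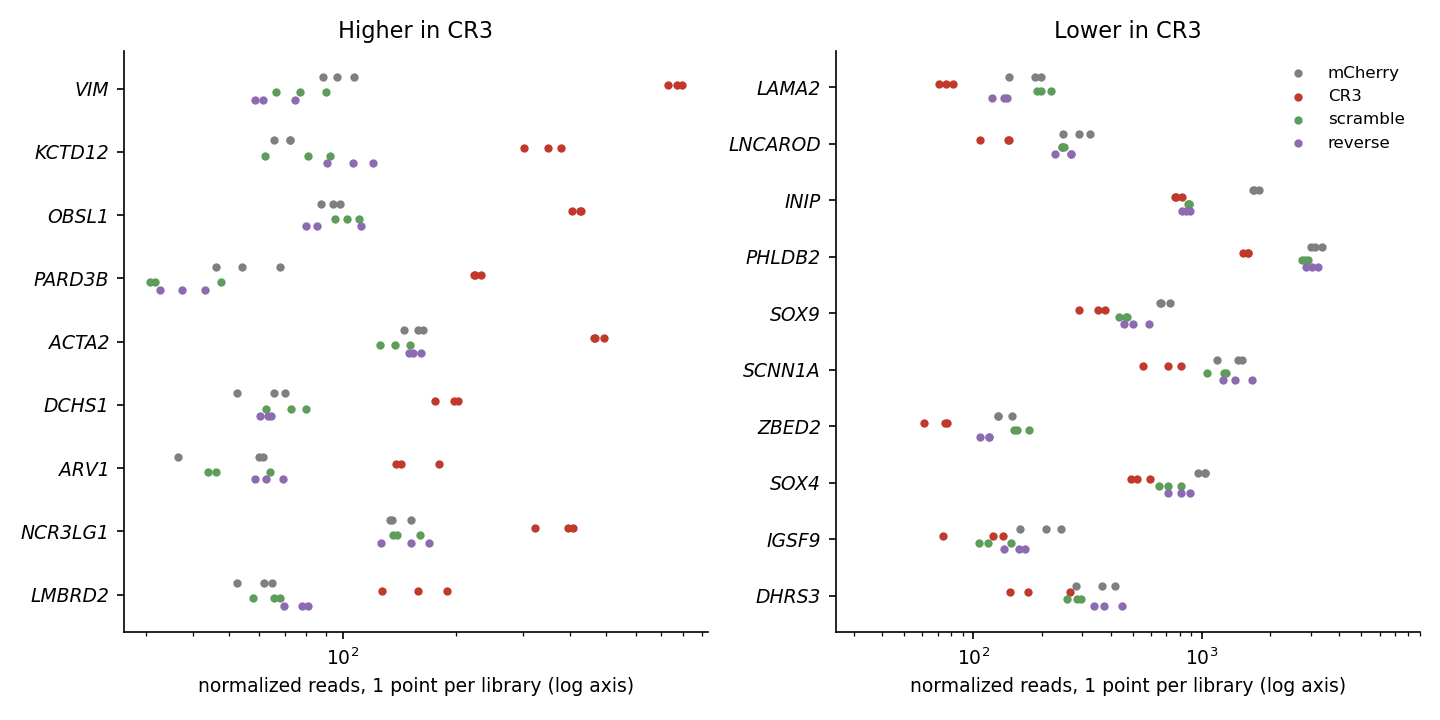
Normalized reads of 9 genes with the largest rises (left) and the 10 with the largest decreases (right) among those with at least 50 normalized reads in both groups; each point is a library, coloured by genotype, on a log axis. CR3 stands apart from the other 3 genotypes in every gene on the left, whereas in INIP on the right it lies beside scramble and reverse.

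A small set of genes was close to absent in CR3. There were 16 tested genes with at most 3 reads over the CR3 libraries, with 13.99 to 72.5 normalized reads in mCherry, and in 14 of them scramble and reverse were also both under 5. PIEZO2, a mechanically gated ion channel, read 70.0, 62.2 and 85.3 in mCherry, a mean of 0.292 in CR3, 0.32 in scramble and 0 in reverse. SLC26A3, a chloride and bicarbonate exchanger of the colon, read 40.7, 29.4 and 35.2 in mCherry and had no read in the other 9 libraries. ESR1, the oestrogen receptor, read 21.9, 17.7 and 11.7 in mCherry, had 1 read over the CR3 libraries and none in scramble or reverse. The genes named here were chosen after their values were seen. Genes this low in CR3 could be tested only if high in every mCherry library, so their number, too, is a description.

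The decreases that were largest in reads were in abundant transcripts, as a difference in reads favours. By difference in mean normalized reads, the 10 genes with the largest decrease were EEF1A1, GAPDH, PKM, HSP90AB1, HSP90AA1, ENO1, ACTG1, PABPC1, EEF2 and RPLP0, which serve translation, glycolysis, protein folding and the cytoskeleton. EEF1A1, the elongation factor that brings aminoacyl-tRNA to the ribosome, read 110931, 113081 and 108470 in mCherry and 90472, 88111 and 84622 in CR3 (log2 fold change -0.34 ± 0.05, adjusted p = 8.00e-05). Its scramble and reverse means, 109747 and 109419, lay beside mCherry. HSP90AB1, a chaperone, read 73334, 74406 and 74008 against 54693, 56746 and 53139. The glycolytic enzymes were at 0.778-fold for GAPDH, 0.749-fold for PKM and 0.724-fold for ENO1. All 10 lay between 0.712-fold (RPLP0, a ribosomal stalk protein) and 0.838-fold (EEF2), and their call and direction also held with library totals and with TMM scaling.

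Among the 10 genes that rose by the largest difference, EGR1, an immediate early transcription factor, led with 7782, 8200 and 7777 normalized reads in mCherry and 12377, 10892 and 11227 in CR3, 1.45-fold (adjusted p = 3.28e-06). IGF2R, the mannose-6-phosphate receptor that carries enzymes to lysosomes, rose 1.41-fold. HERC1, a giant ubiquitin ligase, rose 2.33-fold, from 1341, 1042 and 1402 to 2436, 3135 and 3240. DDX17, LAMB2, PLS3, QSOX1 and CSNK1E rose by 1.25- to 1.47-fold, and LAPTM5 was also among them.

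The lists of genes for growth and biosynthesis held mostly decreases, each small. Of 42 tested translation factors 25 were lower and 1 higher, with a median log2 fold change of -0.17, against 14.8% lower and a median of 0.00 over all genes. EEF1B2, an exchange factor of elongation, read 7558, 7828 and 7862 in mCherry and 5787, 6005 and 5812 in CR3 (log2 fold change -0.40 ± 0.04, adjusted p = 8.18e-07). EIF5A, EIF4B and EIF4H fell to between 0.777- and 0.807-fold. Of 29 enzymes of nucleotide synthesis 17 were lower and 1 higher, with a median of -0.19. Thymidylate synthase, TYMS, read 3824, 3947 and 4176 against 2648, 2975 and 2685, 0.695-fold. PAICS and IMPDH2, of purine synthesis, and RRM2, a subunit of ribonucleotide reductase, fell to between 0.693- and 0.719-fold. These lists hold abundant genes, and the level of a gene moved with the direction of its change.

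Of 29 genes of the citric acid cycle and pyruvate dehydrogenase 13 were lower and 1 higher (median -0.14), that is 44.8% lower against 14.8% of all tested genes and 35.2% of those above 2000 normalized reads. Citrate synthase, CS, fell to 0.787-fold and the pyruvate dehydrogenase phosphatase PDP1 to 0.692-fold, from 13189, 13463 and 14123 to 9314, 9543 and 9364. Of 33 genes of homologous recombination and the Fanconi pathway 12 were lower (36.4%) and 1 higher (median -0.12). FANCA, of the Fanconi core complex, fell to 0.757-fold. The higher member was DMC1, a recombinase of meiosis, which read 8.36, 6.73 and 9.6 in mCherry and 56.1, 57.9 and 41.5 in CR3. DMC1 could pass the filter on reads only through CR3. Of 30 nucleoporins 13 were lower (43.3%) and 2 higher (median -0.10). Of 18 folate and one-carbon enzymes 6 were lower (33.3%), among them MTHFD2, MTHFD1L, MTHFD1 and AHCY, and 2 higher. These counts moved with the scaling. With library totals alone 13 translation factors, 10 nucleotide synthesis genes, 3 citric acid cycle genes, 4 recombination genes, 5 nucleoporins and 5 folate enzymes were lower, and the median of the folate list changed sign, from -0.07 to 0.02.

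Transport and lipid genes were mixed. Of 21 amino acid transporters 8 were lower (38.1%, against 14.8% of all tested genes) and 5 higher (23.8%, against 14.4%). SLC38A2, a sodium-coupled transporter of small neutral amino acids, read 14526, 15342 and 16152 in mCherry and 10032, 10781 and 10752 in CR3, 0.686-fold. SLC38A5 fell to 0.655-fold and the lysosomal member SLC38A7 rose 1.26-fold. Of 21 genes of fatty acid synthesis and desaturation 8 were lower (38.1%) and 4 higher (19.0%). The higher members held 2 elongases of very long chain fatty acids that were nearly silent in the control. ELOVL4 read 0, 0 and 1.07 in mCherry and 86.9, 123 and 107 in CR3, and ELOVL2 went from a mean of 1.82 to 74.1. Both could pass the filter on reads only through CR3. Autophagy and lysosome genes stood on the other side, with 16 of 41 higher (39.0%, against 14.4% of all tested genes), 2 lower and a median of 0.13. HEXA, a subunit of the lysosomal beta-hexosaminidase, rose 1.29-fold from 581, 588 and 526 to 699, 746 and 742, and GABARAPL2, of the ATG8 family, 1.19-fold. The 2 lower members were the protease CTSB, at 0.782-fold, and ATG5, at 0.834-fold. With library totals alone 24 of the 41 were higher.

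**Figure D4:**
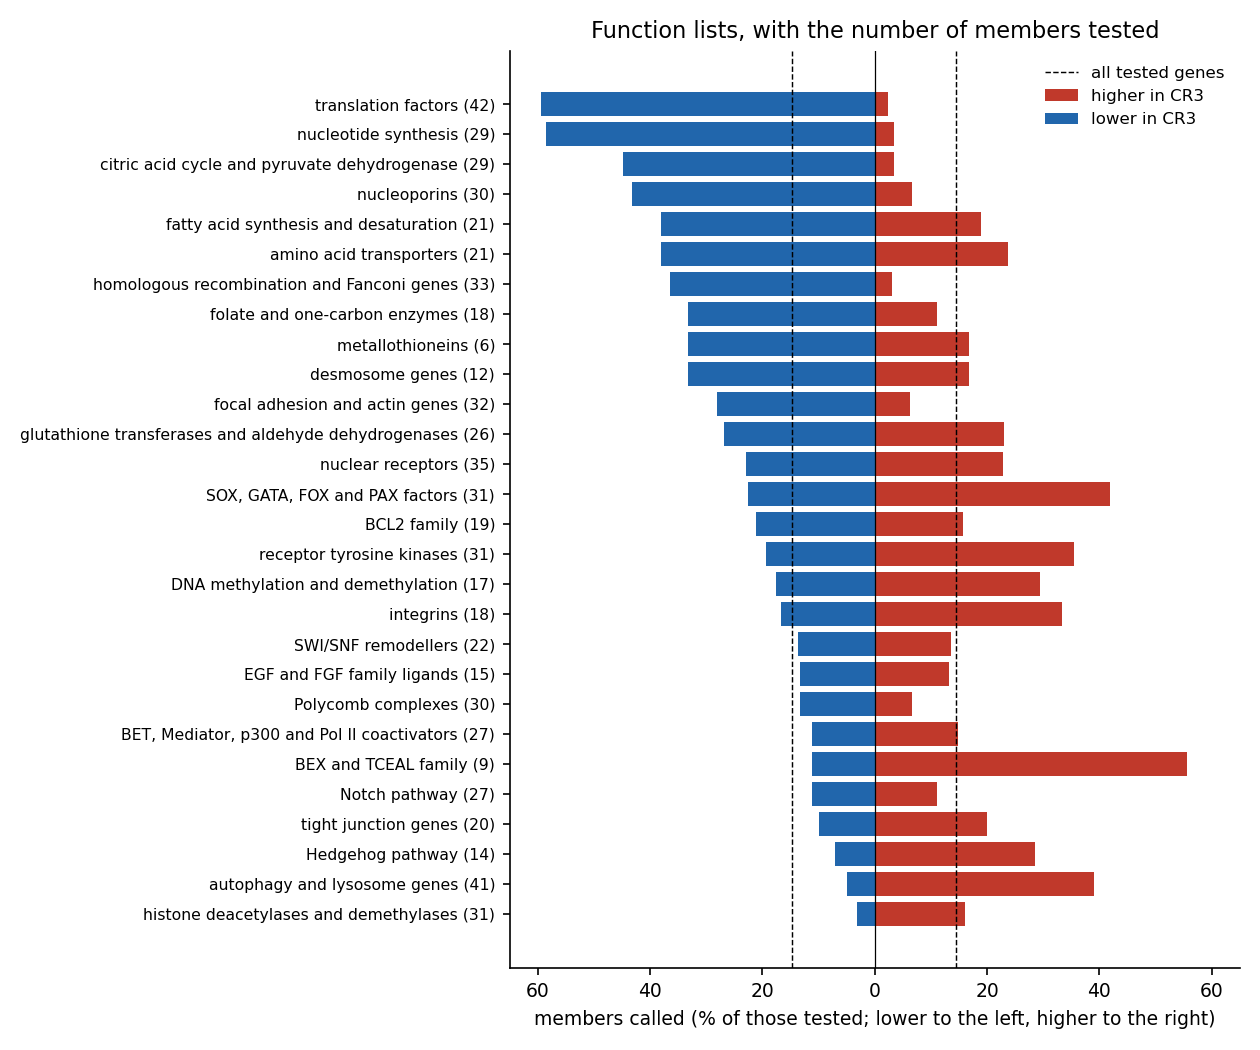
Share of the tested members of each function list called lower (to the left) or higher (to the right) in CR3, in percent, with the number of tested members in brackets; dashed lines mark the shares over all tested genes, 14.8% and 14.4%. Translation factors and nucleotide synthesis extend farthest to the left, and the BEX and TCEAL family and the SOX, GATA, FOX and PAX factors farthest to the right.

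Of 31 tested SOX, GATA, FOX and PAX factors, which direct development, 13 were higher (41.9%, against 14.4% of all tested genes), 8 of them at least 2-fold, and 7 lower (22.6%, against 14.8%). The near-silent members among them passed the filter on reads through CR3 alone. GATA4, a factor of heart and endoderm, read 0, 0 and 1.07 in mCherry and 47.6, 67.5 and 62.7 in CR3. SOX5 stood at 0, 0.841 and 0 against 12.1, 18.4 and 17.0. PAX3 and GATA5, named after their values were seen, had log2 fold changes of 5.02 and 4.24. Beside SOX9 and SOX4, the lower members included FOXM1. This gene, a factor of the cell cycle, read 2986, 3036 and 3053 in mCherry and 2031, 2243 and 2157 in CR3, also named after its values were seen.

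Of 35 nuclear receptors 8 were higher and 8 lower, 22.9% each, against 14.4% and 14.8% of all tested genes. RARB, a retinoic acid receptor, stood at 0, 1.68 and 1.07 against 45.8, 82.5 and 70.2, and RXRG, a retinoid X receptor, at no read against 17.8, 11.4 and 17.0. NR2F1, an orphan receptor abundant in the control, read 3454, 3324 and 3259 against 2288, 2034 and 2183, 0.648-fold (adjusted p = 2.34e-08). The X-linked BEX and TCEAL family of small adaptor and elongation-related proteins had 5 of 9 tested members higher (55.6%) and 1 lower (11.1%). TCEAL1 had no read in mCherry and 69.1, 71.1 and 64.8 in CR3, BEX5 no read against 16.8, 21.1 and 19.1, and the abundant BEX3 rose 1.18-fold. RARB, RXRG, TCEAL1 and BEX5, nearly silent in mCherry, could pass the filter on reads only through CR3.

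Of 31 receptor tyrosine kinases 11 were higher (35.5%, against 14.4% of all tested genes) and 6 lower (19.4%, against 14.8%). FLT4, the receptor of lymphatic growth factors, read 13.6, 6.73 and 20.3 in mCherry and 199, 175 and 210.5 in CR3, 14.4-fold. DDR2, a collagen receptor, rose 5.79-fold from 39.7, 23.6 and 22.4 to 166, 175 and 155. MET, the receptor of hepatocyte growth factor, fell to 0.716-fold, from 7745, 7854 and 8332 to 5588, 5842 and 5716 (adjusted p = 9.83e-08). ERBB4 was higher in CR3 than in mCherry, with means of 21.3 and 1.54, but stood at 28.3 in scramble and 209.8 in reverse, so CR3 was not the genotype with the highest level. Among 14 Hedgehog genes 4 were higher (28.6%) and 1 lower. GLI3, a transcription factor of this pathway, read 2.09, 1.68 and 0 against 69.1, 95.6 and 94.6, and KIF7, its ciliary kinesin regulator, 2.09, 4.21 and 0 against 138, 160 and 163. As ERBB4, GLI3 and KIF7 were nearly silent in mCherry, they could pass the filter on reads only through CR3. Of 27 Notch genes 3 were higher and 3 lower, 11.1% each and under the shares of all genes. The Notch target HEY1 rose 24.3-fold, from 5.22, 15.1 and 12.8 to 252, 274 and 280, and the ligand JAG1 fell to 0.64-fold, from 1019, 1040 and 1040 to 660, 667 and 659. Of 15 EGF and FGF family ligands 2 were higher, FGF13 and NRG4, and 2 lower, 13.3% each and near the shares of all genes.

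Of 27 tested BET, Mediator, p300 and polymerase II coactivator genes 4 were higher (14.8%) and 3 lower (11.1%), near the 14.4% and 14.8% of all tested genes, with all log2 fold changes between -0.28 and 0.31. MED12 and MED23, of Mediator, rose 1.25- and 1.23-fold, and the kinases CDK7 and CDK9 fell to 0.825- and 0.88-fold. This list was sensitive to the scaling, since 16 members were higher and 1 lower with library totals alone, where CDK9 was not called. The SWI/SNF and Polycomb lists were likewise at or under the shares of all genes, with 3 of 22 SWI/SNF genes higher and 3 lower, and 2 of 30 Polycomb genes higher and 4 lower. BCOR, a subunit of a Polycomb repressive complex, read 497, 533 and 467 in mCherry and 821, 823 and 889 in CR3, 1.69-fold, and EZH2, the histone H3 methyltransferase, fell to 0.83-fold but was not called with library totals. Of 17 genes of DNA methylation and demethylation 5 were higher (29.4%) and 3 lower (17.6%). DNMT1, the maintenance methyltransferase, fell to 0.844-fold, from 6368, 6037 and 6433 to 4977, 5432 and 5489. TET1, which oxidises methylcytosine, rose 1.61-fold, from 134, 143 and 141 to 177, 259 and 238. Of 31 histone deacetylases and demethylases 5 were higher (16.1%, near the 14.4% of all tested genes) and 1, KDM1A, lower (3.23%, against 14.8%).

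Adhesion genes held a few large increases, some of them in genes nearly silent in mCherry. Of these, ITGA4, JAM3 and DSG1 could pass the filter on reads only through CR3. Of 18 integrins 6 were higher (33.3%, against 14.4% of all tested genes) and 3 lower (16.7%, against 14.8%). ITGA4, the alpha-4 chain typical of leukocytes, read 0, 0.841 and 0 in mCherry and 43.9, 38.6 and 43.6 in CR3. ITGA6, a laminin-binding chain of epithelia, fell to 0.681-fold, from 1895, 1961 and 1946 to 1266, 1344 and 1339 (adjusted p = 8.21e-08). Of 20 tight junction genes 4 were higher and 2 lower, few enough to lie near the shares of all genes. JAM3 appeared at 140, 143 and 152 normalized reads from 2.09, 0.841 and 0, and CLDN4, an epithelial claudin, fell to 0.713-fold. Of 12 desmosome genes 2 were higher (16.7%) and 4 lower (33.3%). The 2 higher members were cadherins, DSG1 and DSC3, the latter at 44.9, 43.7 and 41.6 in mCherry and 196, 229 and 200 in CR3. DSC3 was not called when decimal places were restored without the group labels, with a log2 fold change of 1.15 in place of 2.23. Of 32 focal adhesion and actin genes 9 were lower (28.1%) and 2 higher (6.25%). The lower ones included FLNA, TPM3, TPM4 and CNN2, at 0.799- to 0.851-fold. With library totals alone the median of that list turned from -0.06 to 0.03.

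Genes of cell death, detoxification and metal binding changed both ways. Of 19 BCL2 family genes 3 were higher (15.8%, against 14.4% of all tested genes) and 4 lower (21.1%, against 14.8%), with a median of 0.02. The pore-forming members BAX and BAK1 rose 1.37- and 1.27-fold, and the survival factor BCL2L1 fell to 0.838-fold. Of 26 glutathione transferases and aldehyde dehydrogenases 6 were higher (23.1%, against 14.4% of all tested genes), 5 of them at least 2-fold, and 7 lower (26.9%, against 14.8%). GSTM3 read 1.05, 0 and 0 in mCherry and 137, 177 and 167 in CR3, and ALDH1A2, which makes retinoic acid, rose 14.2-fold from a low level. Being nearly silent in mCherry, GSTM3 could pass the filter on reads only through CR3. The metal-binding proteins MT2A and MT1E fell to 0.648- and 0.732-fold, and the zinc exporter SLC30A1 rose 1.31-fold.

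Of all tested genes 14.4% were higher and 14.8% lower. Marker genes nearly silent in mCherry could pass the filter on reads only through CR3. The marker lists of cell types, chosen with earlier results of these data known, moved as follows. Of 10 tested intestinal epithelial markers 5 were lower and the other 5 were not called. KRT19, a keratin of simple epithelia, read 9972, 10183 and 8812 in mCherry and 7829, 6506 and 7495 in CR3, and ELF3, an epithelial transcription factor, 840, 842 and 653 against 638, 494 and 517. The summed list stood at 57089 to 64272 in mCherry and 46701 to 54182 in CR3. Of 14 tested markers of embryonic kidney lines 10 were higher (71.4%) and 2 lower (14.3%). IRS4, an insulin receptor substrate, read 4.18, 6.73 and 3.20 against 488, 587 and 575. UCHL1, a neuronal ubiquitin hydrolase, read 0, 3.37 and 4.27 against 443, 546 and 492. NEFM, LIN28B, SALL1, HOXD13, CDH2 and INA rose with them, each from under 5 normalized reads on average to between 74.7 and 186. IRS4, UCHL1 and these markers had at most 15 reads over the mCherry libraries, so they could pass the filter only through CR3. The list did not move as a block. NEFL and LHX1 had no read in any group, PAX2 was 246 in mCherry and 239 in CR3, and PAX8 and DPYSL3 fell. WT1, NEFH, EYA1 and STMN2, which were not tested, had no read in mCherry and 65, 29, 28 and 25 reads over the CR3 libraries. The part of other cells in these values was not tested.

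**Figure D5:**
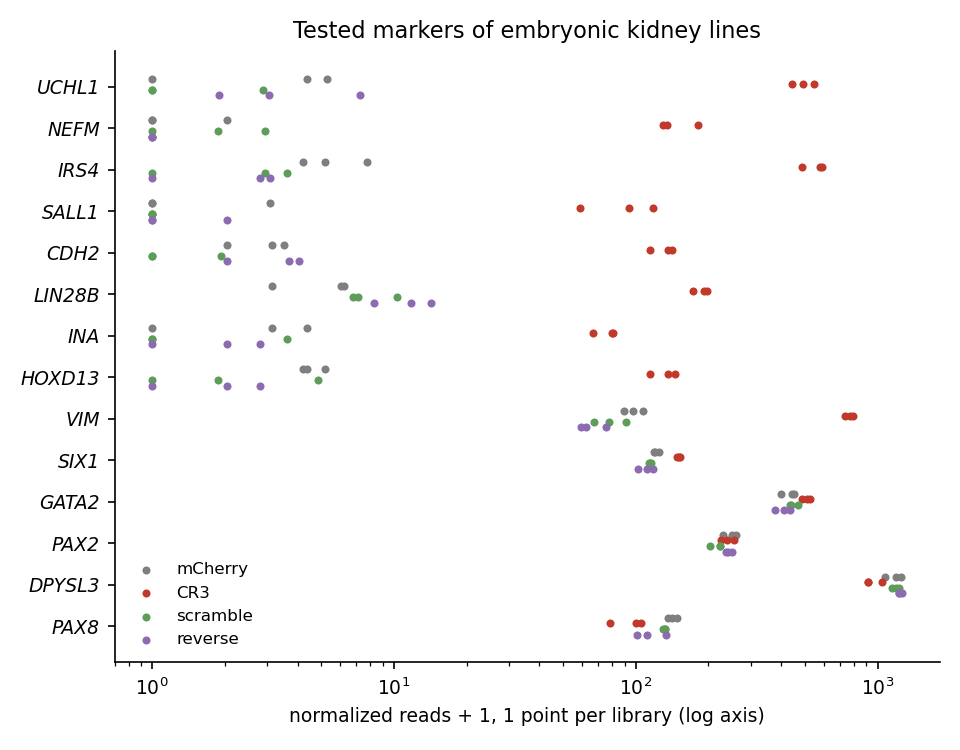
Normalized reads + 1 (log axis) of the 14 tested markers of embryonic kidney lines, 1 point per library, coloured by genotype. In 8 of the markers, from UCHL1 to HOXD13, the CR3 libraries lie far to the right of the other 9, whereas PAX2 overlaps between the groups.

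Fibroblast and mesenchyme markers had 6 of 9 tested members higher and 3 not called, with sums of 1570 to 1915 in mCherry and 3346 to 3666 in CR3. VIM, ACTA2, CDH2 and ZEB2 led them, while COL1A2, DCN and FAP averaged under 2 normalized reads in both groups. ZEB2, a repressor of epithelial genes, went from 0, 1.68 and 0 to 64.5, 63.2 and 69.1. Of 8 tested blood markers 3 were higher, among them LAPTM5 and CD52. Their summed list stood at 355 to 401 in mCherry and 1746 to 1876 in CR3, of which LAPTM5 alone gave 72.9%, and PTPRC, CD3E and TYROBP had no read in either group. Of 9 neuron markers 4 were higher and 2 lower. The higher ones include UCHL1 and INA, which are also on the embryonic kidney list, as VIM and CDH2 of the fibroblast list are. SYT1, a synaptic vesicle protein abundant in the control, fell to 0.683-fold, whereas ELAVL4 had no read. Of 4 germline markers 2 were higher, LUZP4 and TEX15, and 1, MAGEB2, was lower. The summed germline list stood at 6957 to 7346 in mCherry and 6912 to 6939 in CR3, of which MAGEB2 gave 69.6%. LUZP4 and TEX15, with 0 and 7 reads over the mCherry libraries, could pass the filter on reads only through CR3. Of 3 endothelial markers 1, TIE1, was higher, while PECAM1 and CLDN5 had no read in any group. The 1 tested liver marker was not called.

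The calls, 14.4% higher and 14.8% lower over all tested genes, were unevenly spread over the chromosomes. Of 506 tested genes on the X chromosome 148 were higher (29.2%) and 45 lower (8.89%), and 63 were at least 2-fold higher. At least 2-fold higher were 5.02% of all tested genes. The X-linked LUZP4, BEX4, TCEAL1 and BEX5, nearly silent in mCherry, could pass the filter on reads only through CR3. Chromosome 22 had 82 of 384 higher (21.4%) and 19 lower (4.95%), with a median log2 fold change of 0.10. Chromosome 8 leaned to the other side, with 60 of 514 higher and 116 lower (22.6%). On the other autosomes the share higher ran from 88 of 798 genes on chromosome 12 to 265 of 1501 on chromosome 1, and the share lower from 10.6% to 20.3%. Among 298 processed pseudogenes 4 were higher (1.34%, against 14.4% of all tested genes) and 40 lower (13.4%, near the 14.8% of all tested genes). Such copies can share reads with their parent genes, so these calls are uncertain.

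The promoters of the changed genes were compared as a description. A single start was found in the RefSeq table for 7893 of the tested genes. A promoter ran from 250 bases before the start to 50 after it, and was called CG-rich with an observed over expected CG ratio above 0.6 and over 50% G and C. Of all tested genes 84.3% were CG-rich, against 45.1% of the 22114 promoters in the table. The share was 80.6% among genes called higher, 87.3% among those called lower and 72.5% among those at least 2-fold higher. Of the 30 matched genes at least 2-fold lower it was 30.0%. The TATAAA motif, searched on both strands, was present in 5.27% of tested genes, 8.96% of those at least 2-fold higher and 12.7% of all promoters. CCAAT was present in 37.6% of tested genes, 34.0% of those higher and 43.3% of those lower.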

How the data were processed

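Reads of 12 polyA libraries from HCT116 cells, 3 for each of 4 genotypes, were processed by the authors on GRCh38. Per the submitters' processing notes, STAR and Salmon, featureCounts, and DESeq2 and edgeR were used, with FastQC, MultiQC, Trim Galore and GATK. Not given in the sources used here are the versions, the strand setting and which annotation was counted, which leaves antisense and overlapping genes uncertain. Groups and replicate numbers came from the titles.

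The deposited values are reads divided by a size factor per library, found from the values, and have lost the decimal mark at 1 or more. All 265152 non-zero values were whole multiples of 1 read at some power of 10 (tolerance 1e-07). The power was chosen per gene by likelihood with the group labels. Of 18138 values that kept the mark, 98.29% were recovered when it was hidden. Each of these was a single read, so the share does not cover higher counts. In 1762 values (0.665%) another power lay within a likelihood ratio of 20, and their genes were not tested. The size factors, computed again from the reads, came to 0.961 to 0.967 times those in the file.

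log2(normalized reads + 1) was fitted with limma 3.58.1 in R 4.3.3, with a mean-variance trend and a model of 4 groups over 12 libraries (8 residual degrees of freedom), two-sided, adjusted by Benjamini-Hochberg over 15159 genes and called under 0.05. At least 2-fold means a called gene with a log2 fold change of at least 1 in size. Rebuilding and fit were run on simulated data. There, genes near silent in mCherry were not changed, and no decrease was steeper than 2-fold. Tables and figures were made with pandas 2.3.3, numpy 2.4.6, matplotlib 3.10.9 and scipy 1.17.1 under Python 3.11.15. Libraries are not said to come from separate cultures, so p-values measure only the spread between libraries, which may be technical. A gene with no read in a group has its ratio taken against a floor of 3 reads per library, and 1 to 3 reads give a ratio with an exact 95% interval. Both cover counting error only.

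Named genes have a symbol, a call and groups that do not overlap. They are the 10 largest fold changes each way with at least 50 normalized reads in both groups, the 10 largest differences each way, the 10 highest in CR3 with at most 3 mCherry reads, and up to 4 members of each of 36 lists with the smallest p. The members and lists were chosen with earlier results of these data known. Some genes that the rule picked are not reported here. Symbols and coordinates are from GENCODE 29 on GRCh38 by gene identifier (14828 of the tested genes), and promoters from RefSeq. Alternatives varied the pseudocount, filter, scaling, libraries, replicate block and rebuilding.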

Additional observations from a re-analysis of the deposited data

How the results depend on the processing

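Pseudocounts of 0.5 and 5, TMM scaling, a fit to the 6 libraries alone, and keeping the ambiguous genes left the counts higher and lower within 1.5 times of 2181 and 2245. With library totals alone they were 3576 and 1258. At least 2-fold, against 761 higher and 70 lower, 1431 and 174 were found with no filter beyond 1 read (27736 genes tested), 186 and 9 with a mean of at least 50 normalized reads (12316 tested), and 500 and 31 when powers of 10 were chosen without group labels (13394 tested). Leaving out 1 library gave 1657 to 2178 higher, 1667 to 2217 lower, and at least 2-fold 745 to 780 higher and 64 to 79 lower. The replicate numbers did not pair the libraries: deviations of same-numbered CR3 and mCherry libraries correlated at 0.054, -0.15 and 0.021, so not every library matched its own number best. With a replicate block 2025 genes were higher and 2031 lower, and 764 and 68 at least 2-fold. Of 173 named genes, 160 kept direction and call in every alternative that tested them and 13 lost the call in at least 1, with no change of direction. MAGEB2, CDK9, EZH2, PHC2, FH, PERP, PKP4 and EREG lost it with library totals, KCTD12 and DSC3 without group labels, and SMARCB1, SMARCD3 and OCLN with 1 library left out. The planned count tests with edgeR and DESeq2 were not run. A gene 10-fold lower in 1 group can be read as nearly unchanged when its decimal place is restored, so large decreases are less certain, and levels of a few reads limit the ratios of the lowest genes.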
